A study of Mus musculus with 56 samples.

Results

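Nefl, Nefm, Nefh, Ina and Prph encode the intermediate filament proteins of mature neurons, and they are described here across every library of a sequencing study of spinal motor neurons (MNs) in a mouse model of amyotrophic lateral sclerosis (ALS). The 5 genes were listed by name and matched to the counted features by Ensembl ID. They are 5 of 43629 gene IDs, and all 5 passed the filter on low counts that left 18838 genes for testing.

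The study used translating ribosome affinity purification (TRAP), in which ribosomes carrying an EGFP-tagged L10a protein are pulled down with the mRNAs they hold. The tag is driven by the Chat locus on a transgene (Chat bacTRAP, line DW167), and all mice of all groups carried it. Pulled-down RNA (MN-TRAP, 25 libraries) and RNA of the unfractionated cord (31 libraries) were sequenced from 3 genotypes at 9 and 14 weeks of age. The question was which MN mRNAs differ before and after motor symptoms begin. Chat bacTRAP mice carried the tag alone, with 4 MN-TRAP libraries at each age and 6 and 5 cord libraries at 9 and 14 weeks. The hTDP-43A315T mice also carried the human TDP-43 transgene with the A315T patient mutation (line 95Balo/J), with 5 and 4 MN-TRAP and 5 and 4 cord libraries. The hTDP-43WT mice carried unmutated human TDP-43 (line 3cPtrc/J) in place of the mutant, with 3 and 5 MN-TRAP and 6 and 5 cord libraries. Both human transgenes are driven by the prion promoter, which is not restricted to MNs, and each is 1 line. The labels name the cervical cord and the study's methods the spinal cord. The study describes the mice as female. Cord RNA came from the lysates used for the pull-down, so an MN-TRAP and a cord library can share an animal, but the labels do not tie them and all libraries were treated as independent. P-values therefore measure the spread between these libraries.

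Neurofilaments are polymers of the light, medium and heavy chains (Nefl, Nefm, Nefh), joined in the central nervous system by alpha-internexin (Ina) and in neurons with peripheral axons by peripherin (Prph). Nefl forms the core of the filament, whereas Nefm and Nefh carry long tails with lysine-serine-proline repeats that are heavily phosphorylated in axons. Ina is expressed early in development and remains in central neurons. Prph marks neurons that project out of the central nervous system, MNs among them. Filament accumulation in MNs is a classical feature of ALS tissue, neurofilament light chain in blood and cerebrospinal fluid is used as a marker of axonal damage, and TDP-43 is known to bind the NEFL mRNA in human cells.

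The 5 mRNAs are related in sequence, so a stretch that they share clearly is shown first for 4 of them. The coding bases below surround the end of the central rod, and the capitals mark the 18 bases that encode the motif closing the rod in this protein class. Sequences come from the GENCODE transcripts of GRCm38 and run 5′ to 3′.
Nefl: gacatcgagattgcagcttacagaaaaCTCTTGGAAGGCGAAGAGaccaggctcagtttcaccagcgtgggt
Nefh: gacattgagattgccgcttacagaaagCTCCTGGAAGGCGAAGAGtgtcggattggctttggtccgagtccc
Ina: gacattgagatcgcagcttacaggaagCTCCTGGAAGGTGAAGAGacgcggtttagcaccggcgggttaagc
Prph: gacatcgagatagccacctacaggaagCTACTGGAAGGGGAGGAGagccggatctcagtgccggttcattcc
Of these 72 bases, 47 in Nefh, 51 in Ina and 43 in Prph equalled the base of Nefl at the same place. Over the whole transcripts the longest exact run shared by any 2 of the genes was 13 to 35 bases, the longest between Nefm and Prph, outside the overlap of gene models described next.

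The genes lie on 4 chromosomes of GRCm38. Nefl is at chr14:68083863-68089095 on the plus strand (Ensembl ID ENSMUSG00000022055), with 4 exons and 3380 transcript bases. Nefm is its neighbour on the minus strand of chromosome 14 (ENSMUSG00000022054), with its main transcript of 3334 bases in 3 exons at 68119283 to 68124846. In the GENCODE annotation used here the wider gene model of Nefm also covers 1108 exon bases of Nefl on the other strand. The library kit does not keep strand, and the release the authors counted on was not given in the sources used here. Whether reads in the overlap were assigned to either gene or left out is therefore not known here. The counts of Nefl and Nefm, and the levels, shares and ratios made from them, are uncertain to that extent. Nefh (ENSMUSG00000020396) is at chr11:4938754-4948064 on the minus strand, with 4 exons and 3994 bases. Ina (ENSMUSG00000034336) is at chr19:47014698-47025327 on the plus strand, with 3 exons and 3240 bases, of which 456 overlap exons of Nt5c2 on the other strand. The same uncertainty holds for the count of Ina. Prph (ENSMUSG00000023484) is at chr15:99055174-99058978 on the plus strand, with 8 exons and 1863 bases. Translation of the coding bases gave 543 residues for Nefl, 848 for Nefm, 1090 for Nefh, 501 for Ina and 507 for Prph. Lysine-serine-proline triplets numbered 51 in Nefh and 4 in Nefm, and 0 in the other members.

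TDP-43 prefers UG-rich RNA, and the 3′ untranslated regions were searched on the sense strand for TGTGTG, written as DNA. Nefl held it once and Nefm once. The windows begin at bases 1596 and 487 of the region and are shown with the match in capitals.
Nefl: catattcaatccTGTGTGccataataaaat
Nefm: acataagccaaaTGTGTGgtgatgtgtcat
Nefh, Ina and Prph had 0 matches. The same 6 bases occur in 45.09% of 20723 annotated mouse 3′ untranslated regions, so a match is a description of the sequence and not evidence of binding.

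Promoters of Prph and Ina, which moved in opposite directions between fractions, were taken from RefSeq (GRCm38.p6); those of Nefl, Nefm and Nefh were not analysed here. The windows run from 250 bases before to 50 after the annotated start. Capitals mark TATAAA and GGGCGG, each searched on either strand, and the marked matches do not overlap each other.
Prph, chr15:99054924-99055223, plus strand: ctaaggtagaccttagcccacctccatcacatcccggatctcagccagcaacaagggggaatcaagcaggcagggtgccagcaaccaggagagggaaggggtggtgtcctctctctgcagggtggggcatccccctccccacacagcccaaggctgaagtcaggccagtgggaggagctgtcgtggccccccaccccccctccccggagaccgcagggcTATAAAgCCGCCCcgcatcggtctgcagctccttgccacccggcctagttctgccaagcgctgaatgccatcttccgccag
Ina, chr19:47014431-47014730, plus strand: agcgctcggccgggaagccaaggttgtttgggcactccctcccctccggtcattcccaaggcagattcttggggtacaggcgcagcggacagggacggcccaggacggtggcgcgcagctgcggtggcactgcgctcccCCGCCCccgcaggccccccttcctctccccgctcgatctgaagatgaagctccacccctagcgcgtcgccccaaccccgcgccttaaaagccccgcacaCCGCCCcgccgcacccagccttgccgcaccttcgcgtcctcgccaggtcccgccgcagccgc
The Prph window held 1 TATAAA, on the sense strand and beginning 31 bases before the start, and 1 GGGCGG. The Ina window held 0 TATAAA and 2 GGGCGG. Of 32851 mouse promoters of this length, 13.62% held TATAAA and 35.66% held GGGCGG, each on either strand, and no site is claimed from a match.

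Libraries differed widely in depth and in the RNA they held besides that of MNs. Totals ran from 0.472 to 256 M (mega) counts in MN-TRAP and from 17.5 to 86.7 M in cord. In each genotype all 5 MN markers (Chat, Slc5a7, Slc18a3, Isl1, Mnx1) were higher in MN-TRAP than in cord (median log2 fold change 3.11 to 3.33, edgeR), and all 5 oligodendrocyte, all 4 astrocyte, all 4 microglia and all 5 interneuron markers were lower. Summed oligodendrocyte markers were 1118 to 1884 CPM (counts scaled to a common library total) in the MN-TRAP libraries of hTDP-43A315T mice and 1275 to 19640 CPM in those of controls. Markers of sensory ganglion neurons, which also express Nefl, Nefm, Nefh and Prph, were summed at 0.811 to 7.31 CPM in MN-TRAP, with Mrgprd at 0 in 25 of 25 and Scn10a at 0 in 21 of 25 libraries. Libraries that stood apart were Chat bacTRAP 9-week library 4, hTDP-43WT 9-week library 3 and hTDP-43WT 14-week library 5, all MN-TRAP. They held reads of the pseudogene Lamr1-ps1 at 1.11 to 1.69 CPM, against 0.48 to 2.93 CPM in the 18 hTDP-43A315T libraries and 0 to 0.0398 CPM in the other 35 control libraries. The counts of hTDP-43WT 14-week library 5 and Chat bacTRAP 9-week library 4 also differed from those of hTDP-43A315T libraries by a chi-square of 1.31 and 1.90 per gene, whereas the next closest of 231 MN-TRAP pairs differed by 9.50. The libraries are kept under their labels, and tests of the members that use them were also run without these 3, whereas the other gene lists are given with all libraries. The library Chat bacTRAP 14-week 4 of MN-TRAP held Y-linked reads although the mice are described as female. Human TDP-43 was not counted on its own here, so it gives no check of the genotype labels.

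The filament mRNAs were a large part of the MN translatome. Their counts together made up 1.23 to 3.22% of all counts in MN-TRAP (mean 1.99% ± 0.575 SD, n = 25) and 0.523 to 0.747% in cord (0.642% ± 0.0604 SD, n = 31). Nefl, Nefm, Nefh and Prph were higher in MN-TRAP than in cord and Ina was lower, in every genotype. Bulk RNA cannot tell fewer cells of a type from less RNA per cell, and the same holds for the share of ribosome-bound RNA here.

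For Nefl, the light chain, the normalized count (the deposited count divided by a size factor per library) ran from 158537 through a median of 237244 to 482392 in MN-TRAP and from 50796 through 64990 to 79401 in cord. Nefm, the medium chain, ran from 100054 through 193590 to 369441 in MN-TRAP and from 38375 through 56796 to 72871 in cord. Nefh, the heavy chain, ran from 37496 through 73526 to 130882 in MN-TRAP and from 20171 through 27029 to 34937 in cord. For all 3 chains the lowest MN-TRAP library was above the highest cord library. Ina ran from 6407 through 7736 to 10651 in MN-TRAP and from 12943 through 14469 to 16720 in cord. Prph ran from 15653 through 36263 to 70828 in MN-TRAP and from 1719 through 3407 to 6229 in cord. Ina and Prph did not overlap between fractions either, with Ina on the low side. Of all 18838 genes tested, 4.43% had no overlap between the 25 MN-TRAP and 31 cord libraries.

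**Figure D1:**
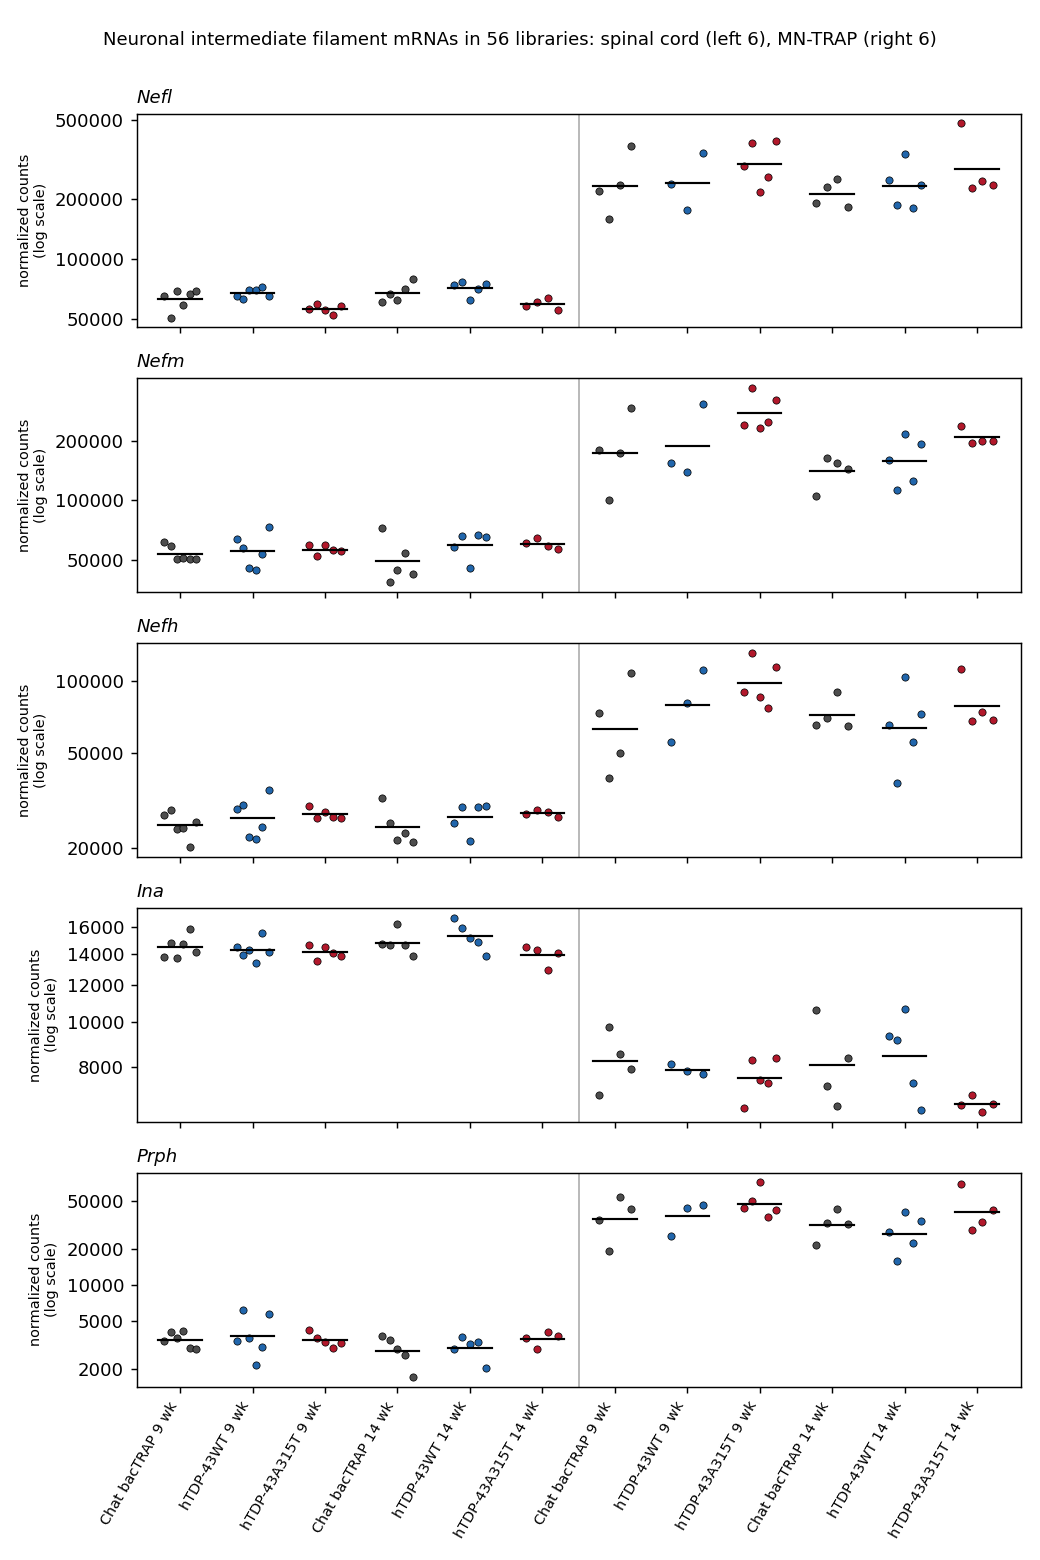
Normalized counts (log scale) of Nefl, Nefm, Nefh, Ina and Prph in each of 56 libraries, by genotype and age, with cord on the left and MN-TRAP on the right of the grey line; points are libraries, coloured by genotype, and black lines are geometric means. Nefl lies between 50796 and 79401 in cord and between 158537 and 482392 in MN-TRAP, and Ina is the only member that is lower in MN-TRAP.

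The fraction test compared MN-TRAP with cord within each genotype over both ages (edgeR's quasi-likelihood test, p-values adjusted by Benjamini-Hochberg over all genes tested). All 15 tests of members passed at an adjusted p below 0.05, and 12 were also at least 2-fold, the exceptions being the 3 of Ina. Many genes pass this comparison. Of all genes, 37.3% in hTDP-43A315T, 29.6% in hTDP-43WT and 32.1% in Chat bacTRAP were called at both thresholds, and 62.8%, 54.4% and 57.7% passed at any fold. The median log2 fold change over all genes was -0.10, -0.15 and -0.21 in this order.

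Prph had the largest change. It was 14.1-fold higher in MN-TRAP of hTDP-43A315T mice (log2 fold change 3.82, SE 0.23, adjusted p = 1.69e-20), 9.91-fold in hTDP-43WT and 11.3-fold in Chat bacTRAP. Nefl was 5.76-fold higher in hTDP-43A315T (log2 2.53, SE 0.15, adjusted p = 2.52e-20), 3.71-fold in hTDP-43WT and 3.70-fold in Chat bacTRAP. Nefm was 4.56-fold (log2 2.19, SE 0.17, adjusted p = 3.73e-16), 3.29-fold and 3.31-fold higher, and Nefh 3.52-fold (log2 1.82, SE 0.17, adjusted p = 3.23e-13), 2.90-fold and 2.98-fold. The estimates therefore fell in the order Prph, Nefl, Nefm, Nefh in each genotype. Ina was at 0.556 of its cord level in hTDP-43A315T (log2 -0.85, SE 0.09, adjusted p = 5.55e-12), 0.586 in hTDP-43WT and 0.596 in Chat bacTRAP. Leaving out any single library kept all 15 tests past the threshold. Without the 3 Lamr1-ps1 libraries all 15 passed as well, and the controls' folds were 3.22 and 3.26 for Nefl, 2.61 and 2.87 for Nefm, 2.51 and 2.58 for Nefh, 8.84 and 10.7 for Prph and 0.588 and 0.586 for Ina (hTDP-43WT, then Chat bacTRAP).

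**Figure D2:**
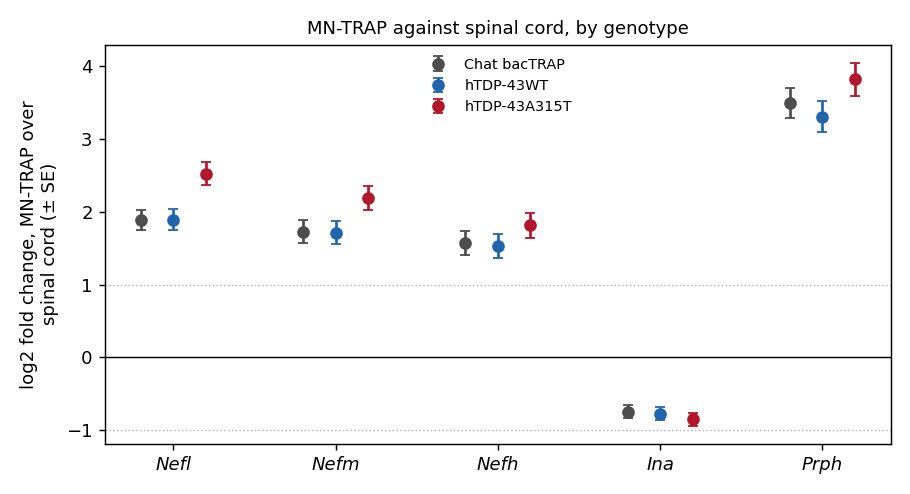
Log2 fold change of MN-TRAP over cord (vertical axis) for each gene and genotype, with bars of 1 standard error from the edgeR fit and dotted lines at 2-fold. Prph is highest at 3.31 to 3.82, and Ina is the only gene below 0, at -0.75 to -0.85.

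Whether this enrichment differed with the mutant was tested as an interaction. The enrichment of Nefl was larger in hTDP-43A315T by 0.64 on the log2 scale against Chat bacTRAP (SE 0.20, adjusted p = 0.102, edgeR) and by 0.64 against hTDP-43WT (SE 0.20, adjusted p = 0.126). That of Nefm was larger by 0.46 (adjusted p = 0.330) and 0.47 (adjusted p = 0.404). None of the 10 differences passed, where 0.69% and 0.648% of all genes did. Without the 3 libraries with Lamr1-ps1 reads, the differences of Nefl were 0.81 (adjusted p = 0.00609) and 0.83 (adjusted p = 0.00213) and those of Nefm 0.66 (adjusted p = 0.0337) and 0.79 (adjusted p = 0.00580), and these 4 passed. The share of all genes that passed in that fit is not given here, so these calls have no background beside them. Leaving out Chat bacTRAP 9-week library 4 alone passed Nefl against Chat bacTRAP (0.82, adjusted p = 0.0139). Leaving out hTDP-43WT 9-week library 3 alone passed Nefl and Nefm against hTDP-43WT (0.81 and 0.74, adjusted p = 0.00888 and 0.0295).

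Levels of different genes were compared per kilobase of transcript. In MN-TRAP the mean was 77284 normalized counts per kilobase for Nefl, 59653 for Nefm, 20294 for Prph, 19654 for Nefh and 2438 for Ina. Nefl exceeded Nefm in 24 of 25 libraries, Nefm exceeded Prph in 25 and Nefh exceeded Ina in 25, whereas Prph exceeded Nefh in only 12 of 25, so the order of Prph and Nefh is not fixed. In cord the means were 19135 for Nefl, 16776 for Nefm, 6658 for Nefh, 4469 for Ina and 1849 for Prph. Nefl exceeded Nefm in 22 of 31 cord libraries, and Nefm over Nefh, Nefh over Ina and Ina over Prph held in 31 of 31. Ina and Prph thus exchanged their places in the order between the fractions.

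As shares of the 5 genes per kilobase, Nefl took 39.2% in cord and 43.3% in MN-TRAP, Nefm 34.2% and 32.9%, and Nefh 13.6% and 10.98%. These mean shares moved by less than 5 percentage points. The share of Ina was 9.19% ± 0.844 (SD, n = 31) in cord and 1.49% ± 0.588 (SD, n = 25) in MN-TRAP. The share of Prph was 3.78% ± 0.922 in cord and 11.4% ± 2.87 in MN-TRAP.

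**Figure D3:**
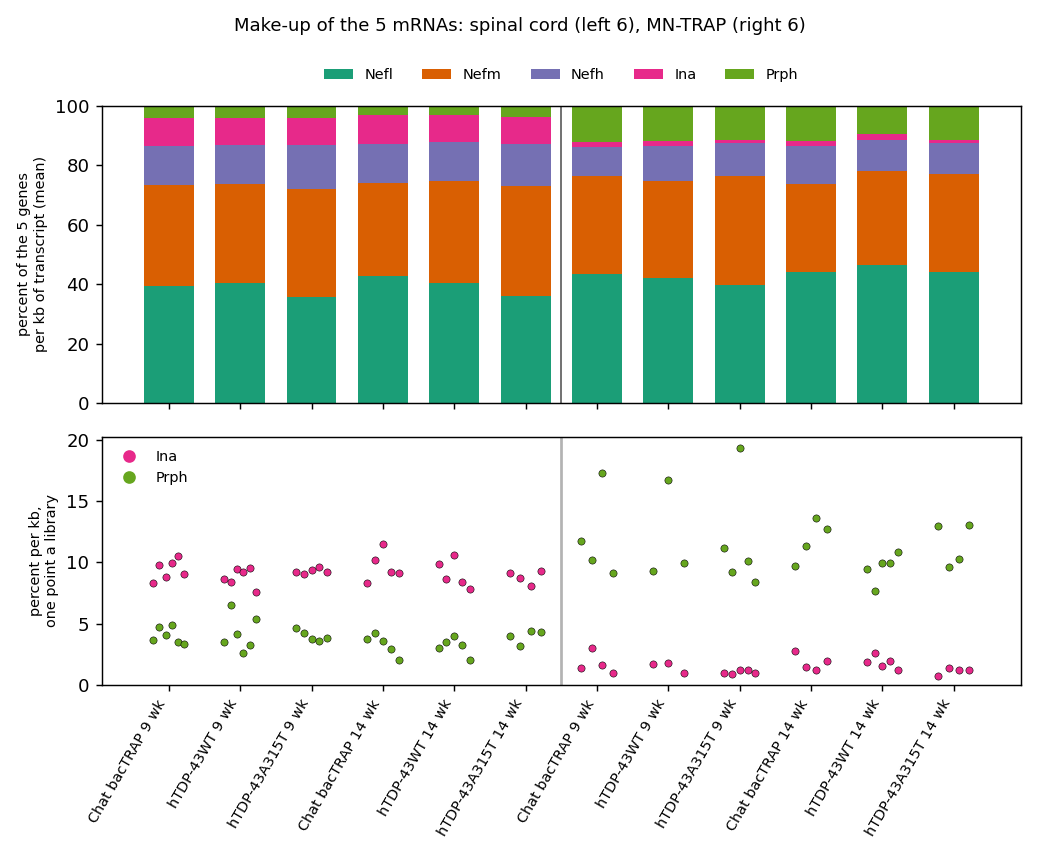
Upper panel: mean percent of the 5 genes' normalized counts per kilobase taken by each gene, stacked to 100%, for 6 cord groups (left) and 6 MN-TRAP groups (right). Lower panel: the same percent for Ina and Prph in each library, where Ina is 7.61 to 11.5 in cord and 0.729 to 3.01 in MN-TRAP and Prph is 1.97 to 6.55 and 7.67 to 19.4.

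Ratios of raw counts within a library do not depend on scaling, and each member was set over Nefl in this way. Per kilobase, the geometric mean of Nefm over Nefl was 0.872 in cord and 0.759 in MN-TRAP, that of Nefh over Nefl 0.347 and 0.253, that of Ina over Nefl 0.235 and 0.0325, and that of Prph over Nefl 0.0942 and 0.257. The log2 ratio of Ina to Nefl was lower in MN-TRAP than in cord, with a difference of -3.32 in hTDP-43A315T at each age, -2.69 and -2.55 in hTDP-43WT at 9 and 14 weeks and -2.71 and -2.52 in Chat bacTRAP. The log2 ratio of Prph to Nefl was higher by 1.26 to 1.84 in the 6 genotype and age groups. Neither ratio overlapped between fractions in any of the 6. For Nefh over Nefl the log2 difference was -0.61 and -0.76 in hTDP-43A315T, -0.28 and -0.48 in hTDP-43WT and -0.56 and -0.09 in Chat bacTRAP, with overlap in 3 of these 6 comparisons. Over 72 such tests of ratios (two-sided exact permutation tests, groups of 3 to 6 libraries), 25 had an unadjusted p below 0.05 and 0 an adjusted p below 0.05, the lowest being 0.0519. A comparison of 4 with 4 libraries cannot go below p = 0.0286 before adjustment (exact permutation test), so the designs leave little room for a smaller value. Leaving out Chat bacTRAP 9-week cord library 2 or library 5 brought 12 of the 72 past the threshold, and leaving out the 3 Lamr1-ps1 libraries brought 0.

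The study's main question concerns the mutant against both controls in MN-TRAP, and the estimates of Nefl, Nefm, Nefh and Prph lay above 0 in each of these 4 comparisons while none passed at an adjusted p below 0.05. The 2 comparisons at an age share the hTDP-43A315T libraries. Of 20 tests, 0 passed with edgeR, 7 had an unadjusted p below 0.05, and 1 passed with DESeq2 and 0 with limma-voom. Of all genes, 0.552% passed against Chat bacTRAP and 2.27% against hTDP-43WT at 9 weeks, and 13.9% and 7.24% at 14 weeks. These shares belong to the fit of all libraries. Shares for the fits that leave libraries out are not given here, so members that pass only in those fits have no background beside them.

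At 9 weeks, Nefl was at 294290, 383865, 218587, 257896 and 392440 normalized counts in the MN-TRAP libraries of hTDP-43A315T mice, at 220218, 158537, 234649 and 369172 in those of Chat bacTRAP and at 239283, 175667 and 339968 in those of hTDP-43WT. The highest control values were those of Chat bacTRAP library 4 and hTDP-43WT library 3, and the groups overlapped. Nefl was higher in hTDP-43A315T by 0.36 (log2, SE 0.20, adjusted p = 0.494, edgeR) and 0.40 (SE 0.22, adjusted p = 0.382). Without the 3 Lamr1-ps1 libraries these values were 0.71 (adjusted p = 0.0197) and 0.77 (adjusted p = 0.0117).

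Nefm at 9 weeks was at 240610, 369441, 232428, 248938 and 320331 normalized counts in hTDP-43A315T, at 180388, 100054, 174105 and 293560 in Chat bacTRAP and at 154622, 138970 and 307670 in hTDP-43WT. The same 2 control libraries were again the highest of their groups, and with them both control groups overlapped hTDP-43A315T. The log2 fold changes were 0.62 (SE 0.23, adjusted p = 0.238, edgeR) and 0.58 (SE 0.25, adjusted p = 0.247). Without the 3 libraries they were 1.01 (adjusted p = 0.00192) and 1.12 (adjusted p = 0.000903). Leaving out Chat bacTRAP library 4 alone or hTDP-43WT library 3 alone gave 1.02 (adjusted p = 0.00875) and 1.12 (adjusted p = 0.00388). These values of Nefm without the 3 or without 1 of them were the only ones of members past the threshold and at least 2-fold between genotypes.

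Nefh at 9 weeks ranged from 77002 to 130882 normalized counts in hTDP-43A315T, from 39375 to 107550 in Chat bacTRAP and from 55323 to 111165 in hTDP-43WT. Its log2 fold changes were 0.58 (SE 0.24, adjusted p = 0.297, edgeR) and 0.35 (SE 0.26, adjusted p = 0.528), and without the 3 libraries the first was 0.98 (adjusted p = 0.00862). Prph changed by 0.43 (SE 0.29, adjusted p = 0.567) and 0.41 (SE 0.31, adjusted p = 0.545), which is within the spread of its libraries, 36263 to 70828 against 19048 to 53331 and 25469 to 46111 normalized counts. Ina was at -0.08 (SE 0.12) and 0.05 (SE 0.14), both with adjusted p above 0.8 (edgeR, 0.848 and 0.881), and its sign changed under other fits (0.08 with limma-voom for the first, -0.05 with DESeq2 and with median-ratio size factors for the second).

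At 14 weeks, Nefl was at 482392, 226981, 248140 and 237244 normalized counts in hTDP-43A315T, at 190787, 230180, 251896 and 183205 in Chat bacTRAP and at 250142, 186543, 339460, 181756 and 237155 in hTDP-43WT. Library 1 of hTDP-43A315T was above every other MN-TRAP library, and the other 3 of its group lay within the range of both controls. The log2 fold change was 0.60 against Chat bacTRAP (SE 0.21, adjusted p = 0.0502, edgeR) and 0.32 against hTDP-43WT (SE 0.20, adjusted p = 0.349). Without hTDP-43A315T library 1 it was 0.25 and -0.03. Without hTDP-43A315T library 2, 3 or 4, or without Chat bacTRAP library 3, the value against Chat bacTRAP was 0.69 to 0.72 with an adjusted p of 0.0299 to 0.0454. Without the 3 Lamr1-ps1 libraries, none of which is in that comparison, it was 0.60 (adjusted p = 0.0186).

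Nefm at 14 weeks was at 238346, 195013, 200012 and 200257 normalized counts in hTDP-43A315T, at 104986, 163200, 155092 and 144597 in Chat bacTRAP and at 160401, 112675, 217242, 125574 and 193590 in hTDP-43WT. All hTDP-43A315T libraries were above all Chat bacTRAP libraries, where 5.63% of all genes had no overlap in either direction, and the range of hTDP-43WT reached into that of hTDP-43A315T. The log2 fold changes were 0.67 (SE 0.24, adjusted p = 0.0539, edgeR) and 0.35 (SE 0.23, adjusted p = 0.367). Without the 3 libraries the first was 0.67 with an adjusted p of 0.0146. Nefh differed by 0.27 (SE 0.25, adjusted p = 0.503) and 0.26 (SE 0.24, adjusted p = 0.541), and without hTDP-43A315T library 1 by 0.05 and 0.04.

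Ina at 14 weeks was at 6635, 6971, 6407 and 6672 normalized counts in hTDP-43A315T, at 10611, 7276, 6590 and 8369 in Chat bacTRAP and at 9334, 9136, 10651, 7407 and 6459 in hTDP-43WT. The hTDP-43A315T libraries lay close together at the low end of both control ranges. The log2 fold changes were -0.20 (SE 0.13, adjusted p = 0.311, edgeR) and -0.37 (SE 0.12, adjusted p = 0.0560). The second was -0.44 (adjusted p = 0.0169) without the 3 Lamr1-ps1 libraries, and it also passed with DESeq2 (-0.36, adjusted p = 0.0152), with median-ratio size factors (-0.37, adjusted p = 0.0456), without libraries of under 3 M counts (-0.37, adjusted p = 0.0390), and without hTDP-43WT library 4 or 5 alone (-0.41 and -0.44, adjusted p = 0.0376 and 0.0177). The log2 ratio of Ina to Nefl differed from that in Chat bacTRAP and hTDP-43WT by -0.69 and -0.63 at 14 weeks, with overlap (exact permutation tests, adjusted p = 0.222 and 0.137). Interneurons also express Ina. Their summed markers at 14 weeks were 190 to 242 CPM in hTDP-43A315T, 288.5 to 666 CPM in Chat bacTRAP and 225 to 722.5 CPM in hTDP-43WT, and 3 of 5 were lower than in each control. At 9 weeks 1 and 0 of 5 were lower, with a median log2 fold change of -0.65 and -0.67, where Ina was at -0.08 and 0.05. Oligodendrocyte markers were lower as well, 4 of 5 against Chat bacTRAP and 5 of 5 against hTDP-43WT at 14 weeks and 1 and 2 of 5 at 9 weeks. Of the MN markers, 2 of 5 were higher than in Chat bacTRAP at 14 weeks (Mnx1 and Isl1, log2 1.01 and 0.72), Chat, Slc5a7 and Slc18a3 were at 0.62, -0.13 and -0.22 without passing, and 0 of 5 passed in the other 3 comparisons. Against Chat bacTRAP and hTDP-43WT, the median MN marker was at 0.43 and 0.40 at 9 weeks and 0.62 and 0.16 at 14 weeks. Nefl was at 0.36 and 0.40 at 9 weeks and 0.60 and 0.32 at 14 weeks. The summed MN markers at 14 weeks were 1634 to 2403 CPM in hTDP-43A315T, 1398 to 2979 CPM in Chat bacTRAP and 1186 to 2314 CPM in hTDP-43WT, which overlap. The part that these other RNAs have in the values of the filament genes was not tested.

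Prph at 14 weeks was at 68137, 28711, 32915 and 41761 normalized counts in hTDP-43A315T, at 21544, 32579, 42916 and 31747 in Chat bacTRAP and at 27536, 15653, 40198, 22101 and 33682 in hTDP-43WT. Library 1 of hTDP-43A315T was again the highest, and the groups overlapped. The log2 fold changes were 0.54 (SE 0.30, adjusted p = 0.228, edgeR) and 0.62 (SE 0.28, adjusted p = 0.178), and without that library 0.20 and 0.29.

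**Figure D4:**
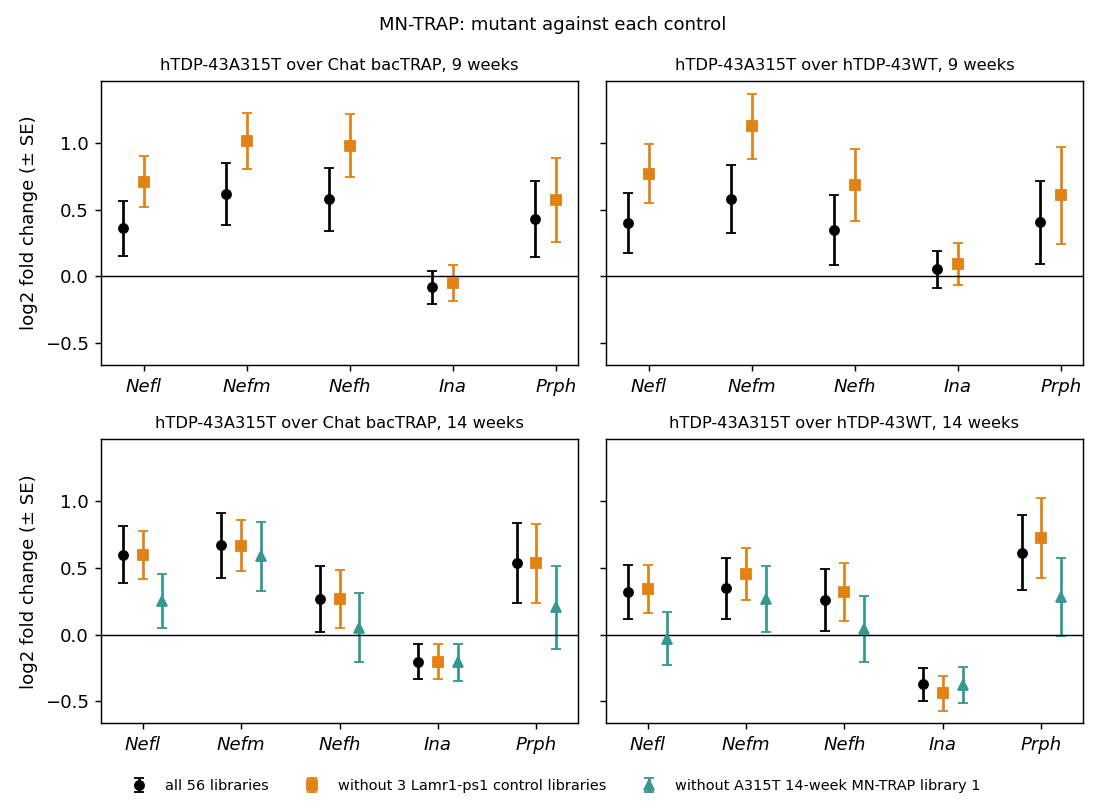
Log2 fold change of hTDP-43A315T over each control in MN-TRAP (vertical axis) for the 5 genes, at 9 weeks (top) and 14 weeks (bottom), with bars of 1 standard error; circles are the fit of all 56 libraries, squares the fit without the 3 control libraries that held Lamr1-ps1 reads, and triangles the fit without hTDP-43A315T 14-week library 1. Nefm at 9 weeks moves from 0.62 to 1.01 and from 0.58 to 1.12 without the 3 libraries, and Nefl at 14 weeks from 0.60 to 0.25 and from 0.32 to -0.03 without library 1.

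The effect of the mutant at 14 weeks was not shown to differ from that at 9 weeks for any member. The difference for Nefl was 0.24 against Chat bacTRAP (log2, SE 0.29, adjusted p = 0.773, edgeR) and -0.08 against hTDP-43WT (SE 0.30, adjusted p = 0.947). The first turned to -0.11 without the 3 Lamr1-ps1 libraries, -0.11 without Chat bacTRAP 9-week library 4 alone, -0.10 without hTDP-43A315T 14-week library 1 and -0.15 with limma-voom, and the second was -0.43 without the 3. The largest was that of Ina against hTDP-43WT, at -0.42 (SE 0.19, adjusted p = 0.278), and -0.53 (adjusted p = 0.0771) without the 3. Of all genes, 1.72% and 0.143% passed these tests. Over these and the enrichment differences, 0 of 20 passed with edgeR, 5 had an unadjusted p below 0.05, and 0 passed with DESeq2 and 1 with limma-voom.

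In cord no member was shown to differ between the mutant and a control with edgeR. At 9 weeks Nefl was at 56306, 59606, 55278, 52374 and 57873 normalized counts in hTDP-43A315T, and ran from 63166 through a median of 67641 to 72627 in the 6 libraries of hTDP-43WT and from 50796 through 66220 to 69334 in the 6 of Chat bacTRAP. All hTDP-43A315T libraries were below all hTDP-43WT libraries, where 4.11% of all genes had no overlap in either direction, and they overlapped those of Chat bacTRAP. The log2 fold change was -0.27 (SE 0.18, edgeR) against hTDP-43WT and -0.16 (SE 0.18) against Chat bacTRAP. At 14 weeks Nefl changed by -0.28 (SE 0.20) and -0.16 (SE 0.20). Its estimate was thus below 0 in cord and above 0 in MN-TRAP. For Nefm, Nefh, Ina and Prph the cord values lay between -0.23 and 0.33. Of 20 tests in cord 0 passed, 0 had an unadjusted p below 0.05 and 0 passed with DESeq2, while limma-voom passed 4, among them Nefl against hTDP-43WT at 9 weeks (-0.30, adjusted p = 0.00689) and at 14 weeks (-0.34, adjusted p = 0.00614). Of all genes, 0.0425% and 0.0212% passed with edgeR at 9 weeks against Chat bacTRAP and hTDP-43WT, and 0.0212% and 0.0265% at 14 weeks.

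Subunit ratios in cord were above those of controls in hTDP-43A315T, without passing adjustment over the 72 tests. The log2 ratio of Nefm to Nefl was higher by 0.24 and 0.29 at 9 weeks (against Chat bacTRAP and hTDP-43WT) and by 0.48 and 0.28 at 14 weeks. That of Nefh to Nefl was higher by 0.32 and 0.32 at 9 weeks and by 0.38 and 0.31 at 14 weeks. The adjusted p of these 8 exact permutation tests was 0.0816 to 0.222. For Ina to Nefl at 9 weeks against hTDP-43WT the difference was 0.25, without overlap, and p = 0.00216 was the smallest that 5 against 6 libraries allow (exact permutation test, adjusted p = 0.0519).

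These ratios moved with a measure of the libraries, the percent of counts from mitochondrially encoded genes. It was 0.965 to 1.72% in the 9 cord libraries of hTDP-43A315T mice, 1.12 to 10.1% in the 11 of hTDP-43WT and 0.980 to 8.53% in the 11 of Chat bacTRAP. Over the 31 cord libraries the log2 ratio of Nefm to Nefl fell with the log2 of this percent, with Pearson's r = -0.908 and Spearman's rho = -0.881 (permutation p = 1e-05 for each, the smallest that the permutations can give; adjusted p = 2.67e-05 over 8 relations for r). Without the 2 libraries farthest from the median, r was -0.887. Within genotypes it was -0.879 in hTDP-43WT (n = 11), -0.926 in Chat bacTRAP (n = 11) and -0.05 in hTDP-43A315T (n = 9). The hTDP-43A315T libraries span a narrow range of the percent, so whether the relation holds among them cannot be told. Nefh to Nefl gave r = -0.869 and rho = -0.850 (permutation p = 1e-05 for each, adjusted p = 2.67e-05 for r), r = -0.896 without the 2 farthest libraries, and -0.879, -0.817 and -0.170 within hTDP-43WT, Chat bacTRAP and hTDP-43A315T. Prph to Nefl gave r = -0.672 and rho = -0.729 (permutation p = 3e-05 and 1e-05, adjusted p = 6e-05 for r) and Ina to Nefl r = -0.478 and rho = -0.463 (permutation p = 0.00685 and 0.00972, adjusted p = 0.00913 for r). In which way this measure enters the genotype differences in cord was not tested.

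In MN-TRAP the mitochondrially encoded percent was 0.0398 to 0.151% in hTDP-43A315T and 0.0637 to 5.81% in controls. There the log2 ratio of Ina to Nefl rose with it (r = 0.767, permutation p = 1e-05, rho = 0.752, permutation p = 3e-05, adjusted p = 2.67e-05 for r). Without the 2 farthest libraries r was 0.696, and within genotypes it was 0.779 in hTDP-43WT (n = 8), 0.844 in Chat bacTRAP (n = 8) and -0.11 in hTDP-43A315T (n = 9). Nefm to Nefl gave r = -0.642 and rho = -0.701 (permutation p = 0.00056 and 0.00018, adjusted p = 0.000896 for r), with -0.554, -0.461 and -0.831 in hTDP-43A315T, hTDP-43WT and Chat bacTRAP. Nefh to Nefl (r = -0.115, permutation p = 0.583; rho = 0.0139, permutation p = 0.949; adjusted p = 0.583 for r) and Prph to Nefl (r = -0.267, permutation p = 0.198; rho = -0.192, permutation p = 0.355; adjusted p = 0.227 for r) showed no relation that passed.

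**Figure D5:**
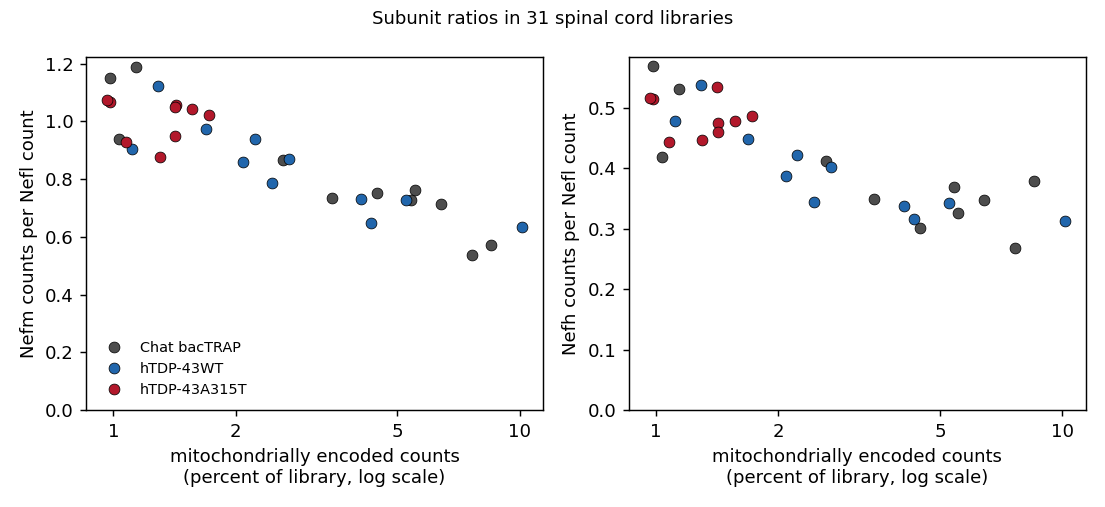
Nefm counts per Nefl count (left) and Nefh counts per Nefl count (right) against the percent of counts from mitochondrially encoded genes (log scale) in the 31 cord libraries, coloured by genotype. Both ratios fall over the range of 0.965 to 10.1%, and the 9 hTDP-43A315T libraries lie between 0.965 and 1.72%.

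No member was shown to differ between the 2 control genotypes. Of 20 tests 0 passed, 0 had an unadjusted p below 0.05 with edgeR, and 0 passed with DESeq2 or limma-voom, with log2 differences from -0.13 to 0.32. The largest were Nefm in MN-TRAP at 14 weeks (0.32, SE 0.23, adjusted p = 0.320, edgeR) and Nefm in cord at 14 weeks (0.29, SE 0.22). Of all genes, 0.223% passed in MN-TRAP at 9 weeks and 21.5% at 14 weeks, and 0% (37 genes at an unadjusted p below 0.05) and 0.00531% in cord. Nefl in MN-TRAP at 14 weeks was at 0.28 (SE 0.20, adjusted p = 0.324), where the median over all genes was 0.21. Without Chat bacTRAP 14-week library 1, Ina passed there (0.35, adjusted p = 0.0468). Without the 3 Lamr1-ps1 libraries 0 of the 20 tests passed, and the MN-TRAP differences ran from -0.14 to 0.29 at 9 weeks and from -0.19 to 0.26 at 14 weeks.

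Age changed no member past the threshold either. Of 30 tests of 14 against 9 weeks 0 passed with edgeR, 2 had an unadjusted p below 0.05 and 0 passed with DESeq2 or limma-voom. These 2 were Nefm in MN-TRAP, at -0.49 in hTDP-43A315T (log2, SE 0.23, adjusted p = 0.702) and -0.53 in Chat bacTRAP (SE 0.24, adjusted p = 0.171). Without Chat bacTRAP 9-week library 2 the latter was -0.74 (adjusted p = 0.0463). In hTDP-43WT Nefm was at -0.25 (SE 0.25, adjusted p = 0.510). Nefl in MN-TRAP changed by -0.09, -0.01 and -0.33 in hTDP-43A315T, hTDP-43WT and Chat bacTRAP, and Prph by -0.21, -0.42 and -0.31. Without the 3 Lamr1-ps1 libraries 0 of 30 passed, but several directions turned. Nefl was then at 0.34 in hTDP-43WT and 0.02 in Chat bacTRAP, the latter also without Chat bacTRAP 9-week library 4 alone, and Nefm was at 0.18 and -0.14. In cord the estimates ran from -0.41 to 0.11. Of all genes, 0.0106%, 10.7% and 6.28% passed in MN-TRAP of the 3 genotypes, and 0% in cord of each (44, 287 and 187 genes at an unadjusted p below 0.05).

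Genes that handle, bind or accompany neurofilaments were followed as lists. Of 17 genes for transport, phosphorylation, linkage or breakdown of filaments, 4 were higher, 3 lower and 10 did not pass in MN-TRAP against cord of hTDP-43A315T, with a median log2 fold change of 0.12 beside -0.10 for all genes. The share that passed in either direction was thus below the 62.8% of all genes. The counts were 3, 3 and 11 in hTDP-43WT and 4, 3 and 10 in Chat bacTRAP. Kif5c, a kinesin heavy chain, was higher by 0.87 (log2, hTDP-43A315T, SE 0.11) and Cdk5, a kinase of the neurofilament tails, by 0.73 (SE 0.13), whereas Macf1, a linker between cytoskeletal filaments, was at -1.51 (SE 0.23), all with edgeR. Between the mutant and a control, 1 of 17 passed in any MN-TRAP comparison. It was Trim2, a ubiquitin ligase for Nefl, at -0.66 against hTDP-43WT at 14 weeks (SE 0.21, adjusted p = 0.0446, edgeR), where 7.24% of all genes passed.

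Of 2 RNA-binding proteins known to bind NEFL mRNA, Tardbp did not pass in any of these comparisons (log2 -0.09 between fractions in hTDP-43A315T and -0.04 and -0.03 against the controls at 14 weeks). Arhgef28, the RGNEF protein, was lower in MN-TRAP than in cord of hTDP-43A315T mice (log2 -2.83, SE 0.20, adjusted p = 2.15e-17, edgeR), where 62.8% of all genes passed. It was also lower in MN-TRAP of hTDP-43A315T than of Chat bacTRAP (-0.95, SE 0.30, adjusted p = 0.0274) and hTDP-43WT (-0.86, SE 0.28, adjusted p = 0.0487) at 14 weeks. Of all genes, 13.9% and 7.24% passed there. Oligodendrocyte markers, also lower in MN-TRAP than in cord, had median log2 fold changes of -1.51 and -1.56 in these 2 comparisons. The part that RNA of other cells has in the values of Arhgef28 was not tested. Of 5 intermediate filament genes of other cells, 4 were lower in MN-TRAP of hTDP-43A315T, 1 in hTDP-43WT and 3 in Chat bacTRAP, and 0 were higher. Gfap, the filament of astrocytes, was at -3.12 (log2, SE 0.26) and Vim, found in astrocytes and vessels, at -1.92 (SE 0.23) in hTDP-43A315T. Against Chat bacTRAP at 14 weeks, where 13.9% of all genes passed, Nes was higher (2.19, SE 0.64, adjusted p = 0.0179) and Des lower (-5.13, SE 1.56, adjusted p = 0.0237), and skeletal muscle markers, with which Des is shared, were lower in 3 of 4. Of 6 genes of axonal microtubules, 3 were higher and 2 lower in MN-TRAP of each genotype. In hTDP-43A315T the log2 fold change was 2.43 for Stmn2, 2.11 for Tubb3, 1.12 for Map1b and -0.52 for Map1a (edgeR). Stmn2, a tubulin-binding protein of growing and regenerating axons, was also higher in hTDP-43A315T than in Chat bacTRAP at 14 weeks (0.66, SE 0.18, adjusted p = 0.0123), and by 0.26 (adjusted p = 0.359) against hTDP-43WT. It was the only 1 of the 6 to pass against Chat bacTRAP at that age, beside 13.9% of all genes.

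The members' levels were compared across libraries by Pearson's r of log2 CPM. This is a description, since libraries differ in depth and carried-over RNA and may share batches that the labels do not name. Over the 25 MN-TRAP libraries the 3 chains varied together, with r = 0.876 for Nefl and Nefm, 0.850 for Nefl and Nefh and 0.865 for Nefm and Nefh. Prph had r = 0.669, 0.754 and 0.773 with them in this order, and Ina -0.06 to 0.03. Over the 31 cord libraries Nefm and Nefh had r = 0.875, whereas Nefl had -0.02 with Nefm and -0.14 with Nefh. In cord Nefl therefore varied apart from the other chains, which is the pattern seen in the ratios above.

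Among 11103 genes averaging 5 CPM or more in MN-TRAP, those most like Nefl were Ywhag (r = 0.952), Grb2 (0.896) and Dpysl3 (0.887), and those most like Nefm were Hdlbp (0.941), Jun (0.930) and Anxa6 (0.923). For Nefh they were Eif4g1 (0.918), Hsp90ab1 (0.907) and Pfkp (0.903), and for Prph Tuba4a (0.965), Blvrb (0.960) and Rnf187 (0.945). Ina had the lowest likeness, with Fez1 at 0.808, Rasa3 at 0.771 and Tmem163 at 0.771. In cord, among 11684 genes, Nefl was most like Ube2k (0.920), Dcun1d1 (0.916) and Cfl2 (0.912), Nefm most like Ddx1 (0.900) and Ecd (0.888), and Nefh most like Ahnak2 (0.931), Anxa6 (0.886) and Hsd17b4 (0.884). Ina was most like Elavl3 (0.784), Stip1 (0.738) and Clip3 (0.727), and Prph most like Nol3 (0.957), Tppp3 (0.956) and Kctd2 (0.952). Anxa6 was named under 2 members, Nefm in MN-TRAP and Nefh in cord.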

How the data were processed

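The 56 libraries (12 groups of 3 to 6) were grouped by genotype, age, fraction and replicate from their sample titles. The count values, deposited by the authors, are whole reads per Ensembl gene made with STAR and featureCounts on mm10, per the submitters' processing notes, which also name DESeq2; versions were not given there. The authors also deposited signal values, printed here as normalized counts, in which each library was scaled by its own size factor. In R 4.3.3, edgeR 4.0.16 (filterByExpr, TMM, glmQLFit with robust estimation, glmQLFTest) fitted 1 model of 12 groups to all libraries and 18838 genes; adjusted p-values are Benjamini-Hochberg over all genes, standard errors come from this fit, and calls need an adjusted p below 0.05 and at least 2-fold. Of these steps, the edgeR fit was tested on simulated counts that had the same spread for all genes. Ratios are of raw counts, tested by two-sided exact permutation. Named genes are the 5 members, up to 4 genes of smallest p per list, and the 3 most like each member. Some items that this rule names are not reported here. Members and lists were chosen with earlier results of these data known. Transcript sequences are GENCODE's and promoters RefSeq's. Alternatives were DESeq2 1.42.0, limma-voom (limma 3.58.1), median-ratio size factors, no filter, the replicate number as a block, 1 fraction alone, and the omission of single libraries or of named sets. Totals per library ran from 0.472 to 256 M (mega) counts. The lowest count of a member in any library was 126 (Ina, in hTDP-43WT 9-week MN-TRAP library 1).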

Additional observations from a re-analysis of the deposited data

Results flagged for a closer look

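In groups of 4 to 10 libraries, a library was singled out where its gap to the nearest other exceeded Dixon's 95% limit. Chance alone does so in about 1 in 20 groups, and 6 of 99 sets of counts or ratios were singled out. Of these, 5 belonged to hTDP-43A315T 14-week MN-TRAP library 1. Its normalized count was 482392 for Nefl, against 226981 to 248140 in the other 3 libraries, 238346 for Nefm, against 195013 to 200257, and 112222 for Nefh, against 67619 to 74357. Its log2 ratio of Nefm to Nefl was -1.02, against -0.31 to -0.22, and that of Nefh to Nefl -2.10, against -1.80 to -1.74. The sixth was hTDP-43A315T 9-week cord library 1, with a log2 ratio of Prph to Nefl of -3.74 against -4.15 to -4.04 in the other 4.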

How the results depend on the processing

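The 15 fraction tests kept their direction and their side of the threshold under every alternative run, with 12 at least 2-fold throughout. The count of members called between the mutant and controls in MN-TRAP went from 0 to 2 without the 3 Lamr1-ps1 libraries, and ranged from 0 to 1 when single libraries were left out. The share of all genes called in those fits is not given here. Subunit ratios past the threshold ranged from 0 to 12. Among fraction, mutant MN-TRAP and enrichment values, signs reversed for Ina against Chat bacTRAP at 9 weeks (0.08259 with limma-voom, and -0.1645 to 0.02115 when single libraries were left out), for Ina against hTDP-43WT at 9 weeks (-0.04902 with DESeq2, -0.05294 with median-ratio size factors, -0.01782 without libraries under 3 M counts, and -0.0187 without hTDP-43WT library 1), for Nefl against hTDP-43WT at 14 weeks (-0.02868 to 0.4623 when single libraries were left out, the lowest without hTDP-43A315T library 1) and for the enrichment difference of Ina against Chat bacTRAP (0.01587 with limma-voom); the cause was not tested. Values that passed no test also changed sign in 30 leave-one-out and 18 other fits for age (size up to 0.3305 with all libraries), 24 and 23 between controls (0.2282), 21 and 15 for the mutant in cord (0.0266) and 25 and 20 for differences between effects (0.2412). Median-ratio size factors moved the median log2 fold change of all genes by over 0.1 in 3 of 25 comparisons (-0.129 in MN-TRAP against cord of hTDP-43A315T, -0.116 between the controls in MN-TRAP at 14 weeks, 0.11 with age in MN-TRAP of Chat bacTRAP). With the replicate number as a block, 12 fraction tests and 0 of the others were called and no call changed. Deviations of same-numbered libraries from their group means had r from -0.341 to 0.276 between MN-TRAP and cord. Between genotypes r ran from -0.434 to 0.634. These values cannot show whether equal numbers mark the same animal, because MN-TRAP and cord RNA of an animal need not deviate alike. A fit of 1 fraction alone cannot give the comparisons between fractions and was not run for them. The lowest count of Ina was 126, and its values changed without libraries under 3 M counts. An effect of depth on Ina was not tested.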
